A study of Mus musculus with 38 samples.

Results

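The 43 genes described here encode oxygen-dependent 2-oxoglutarate dioxygenases. They were taken by name from a list of 14 histone lysine demethylases, the 3 TET enzymes, 9 members of the AlkB family, 6 collagen hydroxylases and 11 other members. The list was chosen with earlier results of these data known, so counts set against all genes below are not a test of the family. All 43 were found by symbol or Ensembl identifier among the 55487 genes of the 3 count tables. Each enzyme of this kind uses molecular oxygen and 2-oxoglutarate to hydroxylate its substrate, with iron in the active site, and releases succinate and carbon dioxide. Hydroxylation of a methyl group on a histone, on DNA or on RNA makes that methyl group leave or turns it into an oxidised base. Hydroxylation of proline or lysine in procollagen allows a stable triple helix and cross-links. Several of the genes are textbook targets of the hypoxia-inducible transcription factors, whose own stability is set by relatives in the same enzyme family.

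Poly(A) RNA was sequenced from 3 kinds of mouse cells. BV2 is an immortalised line of microglia, the macrophages of the brain. GL261 is a glioma line, used here as cells that stably carry the green fluorescent protein plasmid pEGFP-N1. The third kind was primary wild-type macrophages grown from bone marrow (BMDM). In the first experiment, BV2 and BMDM grew alone or in direct contact with GL261, and GL261 grew alone or with BV2, in 21% oxygen (normoxia) or below 0.1% oxygen (hypoxia) for 16 h. Each of these 12 groups had 2 libraries, except the 2 groups of BMDM from co-culture, with 3 each. In the second experiment, BV2 and BMDM grew alone with the solvent DMSO in normoxia, with DMSO in hypoxia, or in hypoxia with 10 nM of the histone deacetylase inhibitor panobinostat, with 2 libraries per group. All cells were fixed with 3% glyoxal before RNA extraction. BV2 and GL261 are each a single line, the age and sex of the mice that gave the macrophages and the way the co-cultured cells were separated are not stated in the labels, and oxygen was not varied under panobinostat.

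The 38 libraries in 18 groups held 9634700 to 27238933 counts, so that 3 counts, the limit a count of 0 allows, corresponded to 0.110 to 0.311 CPM (counts-per-million). Levels below are CPM scaled by edgeR's TMM factors. Effects are log2 fold changes ± standard error (SE) from edgeR's quasi-likelihood test, with Benjamini-Hochberg adjusted p over all genes tested, called at 0.05. Groups of 2 libraries can be without overlap at small ratios, as Ogfod3 was in BV2 alone (hypoxia to normoxia 1.08). How many of all genes had separate groups was not counted. Of 10 textbook hypoxia genes, 8 of the 9 tested rose in BV2 alone, 9 of 10 in GL261 alone and 9 of 10 in BMDM alone, and none fell. In normoxic BV2 alone, 14 of 14 myeloid markers averaged at least 1 CPM. Low among them were Aif1 (1.66 and 1.47 CPM) and the microglia markers Cx3cr1 (0.850 and 1.74 CPM) and Tmem119 (1.49 and 2.005 CPM). In normoxic GL261 alone 10 of 12 glioma markers did (Sox2 at 329.8 and 434 CPM), and Sox9 was at 0. BMDM of the second experiment carried RNA of a fibroblast marker list (Col1a1, Col1a2, Dcn, Lum, Pdgfrb, Thy1) at a summed 2899 to 20810.0 CPM, against 57.3 to 536 CPM in BMDM of the first. In both experiments most of this sum was Col1a1 and Col1a2. Libraries from co-culture held RNA of the partner line: 0.568% to 2.36% of counts in BV2 and 1.29% to 6.28% in BMDM came from GL261 by genes found in the partner, and 0.218% to 0.915% in GL261 came from BV2. In bulk RNA, fewer cells of a type and less RNA per cell cannot be told apart. In the first experiment the labels of both lines speak of biological replicates and no other label names separate cultures, so p-values measure the spread between these libraries.

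Most dioxygenase genes that could be tested changed under hypoxia in the cell lines, and more of them rose than fell in all 3 monocultures. In BV2 alone, 30 of 41 tested members passed the threshold (73.2%, against 61.9% of all 14432 genes), 21 higher and 9 lower, where 30.9% of all genes were higher and 31% lower. In GL261 alone, 27 of 42 passed (64.3%, against 44.6% of all genes), 24 higher and 3 lower, where 23.2% of all genes were higher and 21.4% lower. In BMDM alone, 20 of 41 passed (48.8%, against 23.9%), 15 higher and 5 lower, where 13.3% of all genes were higher and 10.6% lower. The median effect over the tested members of BV2, GL261 and BMDM was 0.71, 0.68 and 0.17, where the median of all tested genes was 0.00, -0.03 and 0.03. Without any 1 of the 4 BMDM monoculture libraries, 11 to 13 members passed in place of 20 (13 without normoxic replicate 2). P4htm was below the count filter in the first experiment, and Kdm4d was below it in BV2 and BMDM. Tet1, P4ha2 and P4ha3 passed the filter in BV2 of the first experiment only through the co-culture libraries, which hold GL261 RNA. Without these 3, 30 of 38 members passed in BV2 alone. Tet1 also passed the filter in BMDM of the first experiment only through co-culture libraries with GL261 RNA. It was at 1.09 and 1.47 CPM (unscaled) in hypoxic co-culture replicates 2 and 3, and it is among the 41 members tested in BMDM.

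**Figure D1:**
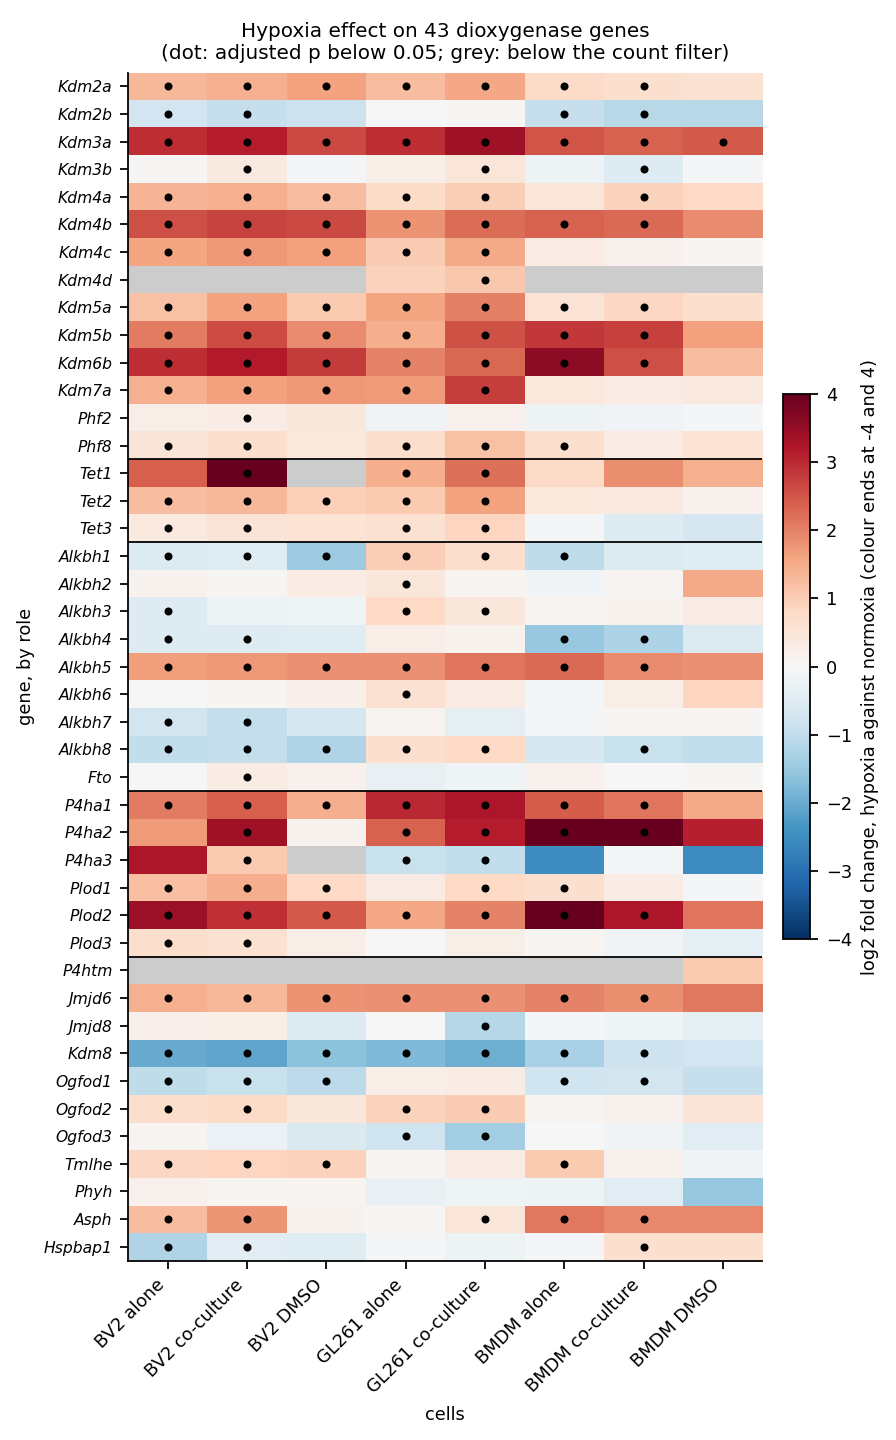
Log2 fold change of each of the 43 genes (rows, by role: histone demethylases, TET enzymes, AlkB family, collagen hydroxylases, others) in 8 comparisons of hypoxia with normoxia (columns). Dots mark adjusted p below 0.05, grey marks genes under the count filter, and the colour scale is in log2 units. Kdm3a is dotted in all 8 columns, Kdm8 is blue in all 8, and Alkbh1 and Alkbh8 are blue in BV2 and red in GL261.

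A core of 11 members rose in all 3 monocultures, which share no library: Kdm2a, Kdm3a, Kdm4b, Kdm5a, Kdm5b, Kdm6b, Phf8, Alkbh5, P4ha1, Plod2 and Jmjd6. That is 26.8% of the 41 tested in each, where 673 of 12218 genes tested in all 3 did so (5.51%). Kdm8 was the only member that fell in all 3 (2.44%, against 3.95% of all genes), and 8 of the core rose at least 2-fold in each. These 8 (Kdm3a, Kdm4b, Kdm5b, Kdm6b, Alkbh5, P4ha1, Plod2, Jmjd6) passed in BMDM alone whichever single library was left out. The calls of Kdm2a, Kdm5a and Phf8 in BMDM alone were lost without any 1 of the 4 libraries, and that of Kdm8 was lost without 3 of the 4. Kdm3b, Phf2, Fto, Jmjd8 and Phyh passed in none of the 3.

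To show the DNA next to 4 of these genes, the bases before their RefSeq start sites are printed 5′ to 3′ on the gene's strand (GRCm38.p6), in lower case. Capitals mark ACGTG or GCGTG, the 2 forms of the core to which hypoxia-inducible factors bind, read on either strand, so that a match on the other strand is printed as its reverse complement. P4ha1 and Kdm5b stand for the members that rose in all 3 cell types, Kdm3a, picked after the search, for a riser whose printed stretch holds neither form, and Kdm8 for the member that fell. By Ensembl identifiers these genes are ENSMUSG00000019916 (P4ha1), ENSMUSG00000042207 (Kdm5b), ENSMUSG00000053470 (Kdm3a) and ENSMUSG00000030752 (Kdm8). The stretches of P4ha1 (chr10:59323046-59323295, plus strand) and Kdm8 (chr7:125444370-125444619, plus strand) end at the base before the start site. That of Kdm5b (chr1:134559928-134560170, plus strand) ends 8 bases before it and that of Kdm3a (chr6:71632991-71633167, minus strand) 74 bases before it, where an annotated exon begins.
P4ha1: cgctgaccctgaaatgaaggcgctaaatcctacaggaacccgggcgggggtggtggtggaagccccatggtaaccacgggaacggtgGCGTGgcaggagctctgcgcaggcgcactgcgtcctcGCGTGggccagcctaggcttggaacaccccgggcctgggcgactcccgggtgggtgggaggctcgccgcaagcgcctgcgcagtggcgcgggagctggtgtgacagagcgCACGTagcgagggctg
Kdm5b: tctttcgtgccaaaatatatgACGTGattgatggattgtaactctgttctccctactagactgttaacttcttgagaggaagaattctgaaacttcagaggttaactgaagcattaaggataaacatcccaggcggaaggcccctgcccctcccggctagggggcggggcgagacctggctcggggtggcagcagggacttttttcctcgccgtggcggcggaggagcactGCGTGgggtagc
Kdm3a: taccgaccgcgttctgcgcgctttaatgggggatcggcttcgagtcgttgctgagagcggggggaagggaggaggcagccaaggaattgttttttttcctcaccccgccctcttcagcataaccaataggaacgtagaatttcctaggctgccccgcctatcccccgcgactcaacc
Kdm8: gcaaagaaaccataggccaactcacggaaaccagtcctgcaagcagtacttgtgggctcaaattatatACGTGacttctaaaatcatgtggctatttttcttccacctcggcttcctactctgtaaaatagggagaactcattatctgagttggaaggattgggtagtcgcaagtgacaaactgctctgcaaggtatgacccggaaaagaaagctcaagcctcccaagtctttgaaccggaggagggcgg
P4ha1 held 3 matches, Kdm5b 2, Kdm8 1 and Kdm3a 0 in these stretches. In the whole 250 bases before this Kdm3a start site there was 1 match, of the form with G. Of 42 RefSeq promoters of 34 members, 22 (52.4%) held either form in the 250 bases before the start site, 13 the form with A (31%) and 20 the form with G (47.6%). Of 32851 promoters in the table, 38.6% held either, 16.6% the form with A and 28.2% the form with G. The 9 members without a promoter there include Kdm2a, Kdm4b, Kdm5a, Kdm6b and Plod2 of the core, so the member shares do not describe the risers. Genes with several start sites, such as Kdm2b, count once per site. The palindrome that extends the form with A holds it on both strands, so such a site counts on each. A match is only a run of letters in this window.

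Among the histone lysine demethylases, 10 of 13 tested rose and 1 fell in BV2 alone, 10 of 14 rose and none fell in GL261 alone, and 7 of 13 rose and 1 fell in BMDM alone. These are 76.9%, 71.4% and 53.8% higher, against 30.9%, 23.2% and 13.3% of all genes. Kdm3a, which removes mono- and dimethyl marks from histone H3 lysine 9, was at 51.5 and 62.1 CPM in normoxic BV2 and 380.5 and 503 CPM in hypoxic BV2. In GL261 it was at 104 and 126 CPM and 968 and 829 CPM, and in BMDM at 37.3 and 45.4 CPM and 222 and 248 CPM. No normoxic library reached a hypoxic one of the same cell type, and the effect was 2.96 ± 0.15, 2.97 ± 0.16 and 2.51 ± 0.22 (adjusted p = 1.80e-10, 6.40e-07 and 5.16e-05, edgeR). Its paralogue Kdm3b, with the same substrate, lay between -0.20 and 0.23 in the monocultures and passed in none, and 24.6% of its exon bases are also covered by a gene on the other strand.

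Kdm6b, which removes the repressive trimethyl mark from H3 lysine 27 and is known in macrophages as an inflammation-induced gene, had the largest rise of this class in BMDM alone. Its level was 9.58 and 10.6 CPM in normoxic BMDM and 109 and 129 CPM in hypoxic BMDM, an effect of 3.56 ± 0.35 (adjusted p = 9.37e-05). In BV2 it was at 10.8 and 13.0 CPM and 89.7 and 92.3 CPM (2.94 ± 0.15). In GL261 it started from 93.1 and 109.5 CPM and reached 443 and 358 CPM (1.98 ± 0.17). Normoxic and hypoxic libraries were separate in every cell type.

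Kdm4b, a demethylase of trimethylated H3 lysine 9, rose by 2.59 in BV2, 1.81 in GL261 and 2.37 in BMDM. Its BMDM libraries held 37.1 and 39.9 CPM in normoxia and 191 and 206 CPM in hypoxia. BV2 went from 25.8 and 29.9 CPM to 169.9 and 166 CPM and GL261 from 46.8 and 51.6 CPM to 182 and 164 CPM. Kdm5b, which erases the H3 lysine 4 marks of active promoters, was at 11.7 and 10.3 CPM in normoxic and 83.4 and 73.2 CPM in hypoxic BMDM (2.83 ± 0.40). The change was from 13.0 and 18.1 CPM to 60.7 and 70.0 CPM in BV2 (2.07 ± 0.16) and from 25.9 and 36.5 CPM to 85.3 and 87.3 CPM in GL261 (1.47 ± 0.16). The groups did not overlap for either gene in any monoculture comparison.

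Kdm5a, its paralogue with the same substrate, rose in each monoculture, by 1.17 ± 0.11 in BV2, 1.57 ± 0.14 in GL261 and 0.54 ± 0.18 in BMDM. Its libraries held 61.0 and 66.5 CPM and 140.2 and 147 CPM in BV2, 142 and 135 CPM and 434 and 387 CPM in GL261, and 50.3 and 47.9 CPM and 67.7 and 75.5 CPM in BMDM. Kdm2a, a demethylase of H3 lysine 36 that binds unmethylated CpG islands, went from 144 and 155 CPM to 362 and 393 CPM in BV2, from 98.1 and 89.2 CPM to 251 and 188 CPM in GL261 and from 110.0 and 118 CPM to 193 and 194 CPM in BMDM. Its paralogue Kdm2b, which binds the same kind of island, fell in BV2 and BMDM. Kdm2b was at 64.5 and 69.5 CPM in normoxic and 38.0 and 41.4 CPM in hypoxic BV2 (-0.75 ± 0.12), and at 60.3 and 56.0 CPM and 28.1 and 33.1 CPM in BMDM (-0.93 ± 0.21). The BMDM call was lost without normoxic replicate 1 or hypoxic replicate 1. In GL261 its libraries overlapped, at 23.0 and 30.0 CPM and 30.2 and 23.4 CPM.

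A further set of demethylases passed in the lines but not in BMDM alone. Kdm7a, which acts on H3 lysines 9 and 27, was at 26.9 and 31.2 CPM in normoxic and 76.3 and 80.0 CPM in hypoxic BV2 (1.43 ± 0.13), and at 16.1 and 18.0 CPM and 52.2 and 58.6 CPM in GL261 (1.70 ± 0.17). In BMDM it was at 28.0 and 33.8 CPM and 47.0 and 35.8 CPM (0.42 ± 0.23, adjusted p = 0.216). Kdm4c and Kdm4a, relatives of Kdm4b, also passed in the lines and not in BMDM alone. Kdm4c went from 16.4 and 19.9 CPM to 51.4 and 56.1 CPM in BV2 and from 23.3 and 32.5 CPM to 61.1 and 52.5 CPM in GL261. Kdm4a went from 65.1 and 69.5 CPM to 174 and 175 CPM in BV2 and from 199 and 216 CPM to 374 and 312 CPM in GL261. In BMDM alone Kdm4a was at 83.9 and 88.8 CPM and 114 and 129 CPM, without overlap (0.49 ± 0.26, adjusted p = 0.191), and in BMDM from co-culture it rose, from 74.1, 84.7 and 66.3 CPM to 112, 202 and 117 CPM (0.93 ± 0.21, adjusted p = 0.00598). The difference between the lines and BMDM was not tested, since the tables were normalised separately. Phf8, an X-linked demethylase of H3 lysine 9 and H4 lysine 20, rose by 0.51, 0.71 and 0.64, less than 2-fold in each monoculture, and Phf2 lay between -0.21 and 0.25. Kdm4d, tested in GL261 alone among the monocultures, was at 0.767 and 0.907 CPM and 1.76 and 1.39 CPM (adjusted p = 0.0652) and shares 6.26% of its 75-base words with Kdm4dl.

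**Figure D2:**
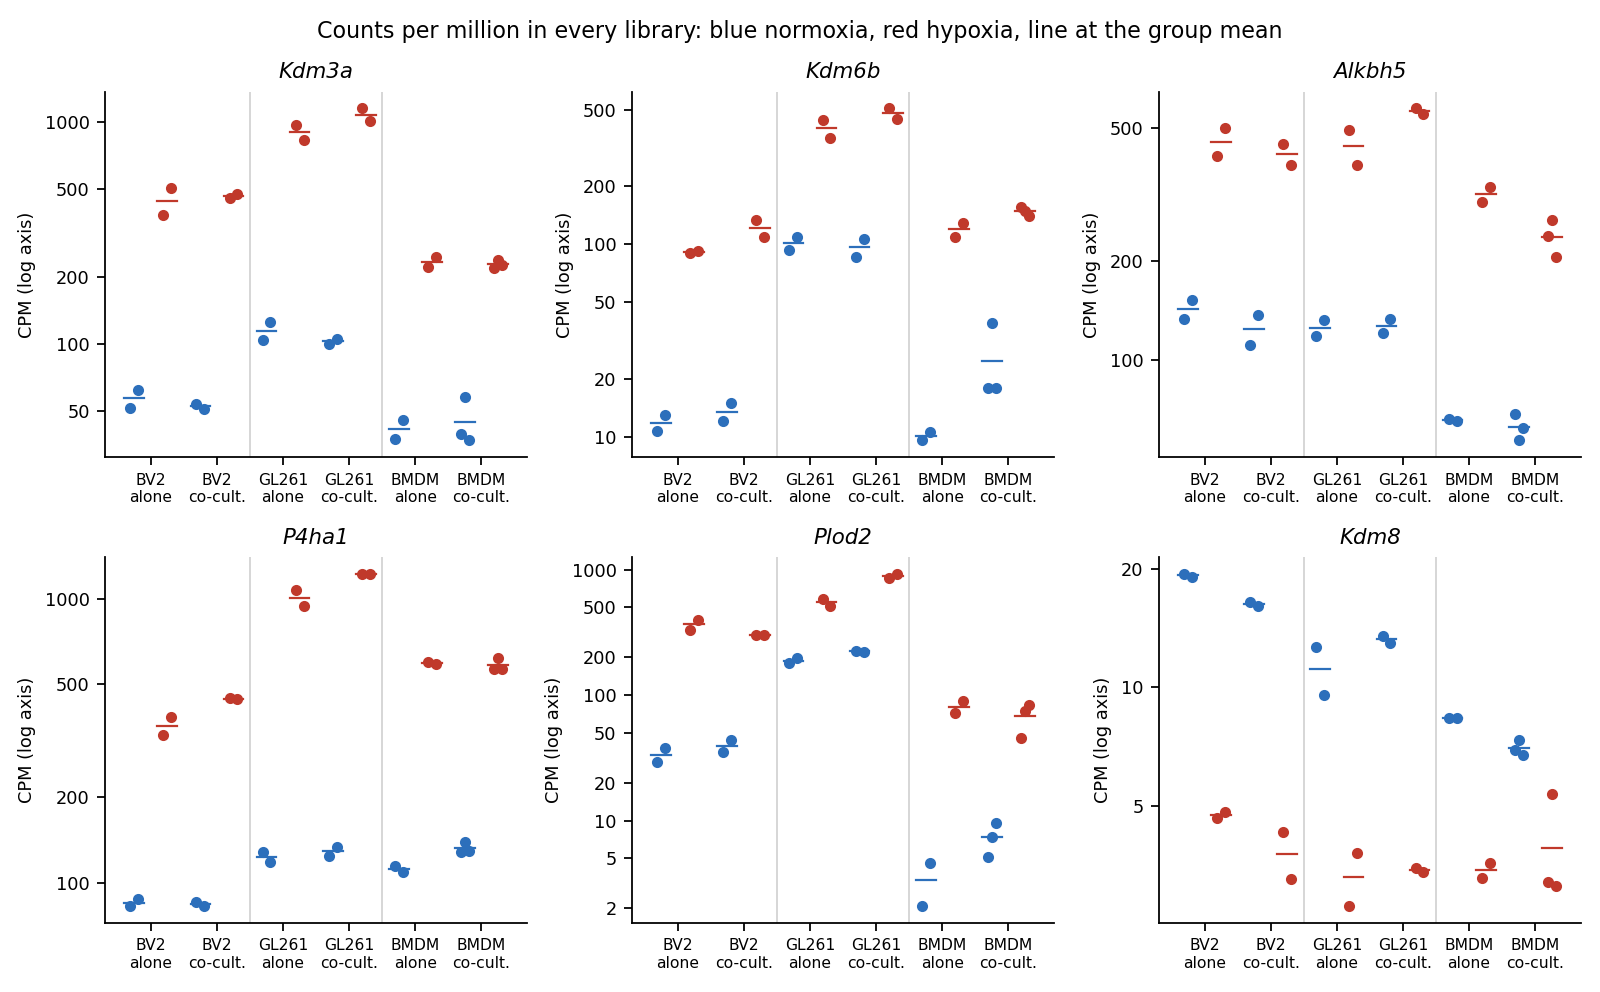
CPM (log axis) of 6 members in each library of the first experiment, by cell type and culture, in normoxia (blue) and hypoxia (red), with lines at group means. Hypoxic libraries lie above normoxic ones of the same cells in all 5 panels of risers, and Kdm8 lies below.

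The TET enzymes oxidise 5-methylcytosine in DNA, the first step of its removal. Tet1, the member linked to stem-like cells, was present in GL261 at 19.9 and 27.6 CPM in normoxia and 73.9 and 56.0 CPM in hypoxia (1.45 ± 0.18, adjusted p = 9.77e-05). BV2 monocultures held 0 counts of it in normoxia and 1 in hypoxia, and BMDM monocultures held at most 0.207 CPM. Tet2, prominent in blood cells, was at 56.0 and 65.7 CPM and 133 and 150.0 CPM in BV2 (1.22 ± 0.12) and at 25.8 and 34.5 CPM and 60.1 and 63.9 CPM in GL261 (1.04 ± 0.16). In BMDM it was at 38.6 and 51.5 CPM and 52.9 and 68.8 CPM, which did not pass (0.43 ± 0.27, adjusted p = 0.279). Tet3 rose by 0.40 in BV2 and 0.61 in GL261 and was at -0.04 in BMDM. The Tet3 calls were each lost without normoxic replicate 1 of that line. No TET gene passed in BMDM alone. In BMDM from co-culture Tet2 passed in edgeR with the replicate number as a block (0.44, adjusted p = 0.0282) and not without it. DESeq2, which used no block, called 1 TET gene in that comparison.

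In the AlkB family, 1 of 9 members rose and 5 fell in BV2 alone (11.1% and 55.6%, against 30.9% and 31% of all genes), and 6 of 9 rose and none fell in GL261 alone (66.7% higher, against 23.2%). In BMDM alone 1 rose and 2 fell (11.1% and 22.2%), where 13.3% of all genes were higher and 10.6% lower. The member that rose in all was Alkbh5, which removes N6-methyladenosine from RNA. It was at 133 and 153 CPM and 413 and 500.0 CPM in BV2, 119 and 132 CPM and 496 and 388 CPM in GL261, and 66.8 and 65.5 CPM and 299.8 and 333 CPM in BMDM, normoxia before hypoxia. The groups were separate each time, with effects of 1.68 ± 0.14, 1.81 ± 0.15 and 2.26 ± 0.17. Fto, the other eraser of this mark, lay between -0.30 and 0.17, and its lowest adjusted p in the 3 monocultures was 0.097.

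Alkbh8, which modifies the wobble uridine of transfer RNA, was at 35.1 and 37.2 CPM in normoxic and 17.1 and 19.1 CPM in hypoxic BV2 (-0.998 ± 0.13, adjusted p = 4.41e-06). In GL261 it rose from 21.2 and 25.8 CPM to 40.2 and 33.7 CPM (0.65 ± 0.16, adjusted p = 0.00547). In BMDM it was at 6.51 and 9.20 CPM and 4.95 and 5.11 CPM and did not pass. Alkbh1, a mitochondrial and nuclear enzyme that acts on transfer RNA, showed the same contrast: 57.4 and 67.4 CPM fell to 41.3 and 43.9 CPM in BV2 and 54.6 and 50.3 CPM rose to 107 and 98.7 CPM in GL261. In BMDM it fell from 20.03 and 24.3 CPM to 11.4 and 10.6 CPM, a call that was lost without any 1 of the 4 libraries. Alkbh3, which repairs alkylated DNA and RNA, fell by 0.51 on the log2 scale in BV2 and rose by 0.79 in GL261, at levels of 12.9 to 43.6 CPM. The BV2 call of Alkbh3 was lost without normoxic replicate 1 or hypoxic replicate 2, and the GL261 call of Alkbh8 was lost without normoxic replicate 1. Alkbh4 had its largest fall in BMDM, from 17.7 and 18.1 CPM to 5.53 and 7.12 CPM (-1.50 ± 0.22, adjusted p = 0.00101), and fell by 0.50 on the log2 scale in BV2, where DESeq2 did not call it (adjusted p = 0.0854). Alkbh7, a mitochondrial member, passed in BV2 alone (-0.74), and Alkbh6 and the DNA repair enzyme Alkbh2 in GL261 alone (0.61 and 0.46), calls that were lost without 2 and 3 of the 4 libraries. Alkbh2 shares 29.51% of its exon bases with Usp30 on the other strand, and DESeq2 did not call it in GL261 (adjusted p = 0.0519).

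The collagen hydroxylases include the 3 catalytic alpha subunits of prolyl 4-hydroxylase (P4ha1 to P4ha3) and the 3 lysyl hydroxylases (Plod1 to Plod3). In BV2 alone and in BMDM alone 4 of 6 rose and none fell (66.7%, against 30.9% and 13.3% of all genes higher), and in GL261 alone 3 rose and 1 fell (50% and 16.7%, against 23.2% and 21.4%). The 6 of BV2 include P4ha2 and P4ha3, at 3 counts or fewer per group there. P4ha1 was at 82.9 and 87.6 CPM in normoxic and 331 and 385 CPM in hypoxic BV2, at 128 and 118 CPM and 1073 and 944 CPM in GL261, and at 114 and 109.7 CPM and 602 and 588 CPM in BMDM. The hypoxic libraries stood well above the normoxic ones in each cell type, and the effects were 2.07 ± 0.11, 3.03 ± 0.15 and 2.41 ± 0.15. Plod2, which hydroxylates the lysines of collagen telopeptides, was at 2.08 and 4.60 CPM in normoxic and 71.9 and 90.1 CPM in hypoxic BMDM (4.61 ± 0.42, adjusted p = 5.77e-05). BV2 went from 29.1 and 37.8 CPM to 333 and 399 CPM (3.45 ± 0.16) and GL261 from 179 and 198 CPM to 588 and 509 CPM (1.54 ± 0.14). The Plod2 groups were separate in all 3.

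P4ha2 rose in BMDM and GL261 and was almost absent from BV2 alone. BMDM held 8.10 and 11.5 CPM in normoxia and 459 and 484 CPM in hypoxia, the largest called rise of any member in the 3 monocultures (5.59 ± 0.33, adjusted p = 7.58e-06). GL261 held 35.8 and 27.2 CPM and 181 and 145 CPM (2.37 ± 0.17). BV2 monocultures held 1 count in normoxia and 3 in hypoxia, a ratio of 3.92 with a 95% counting interval of 0.315 to 205.9. P4ha3 went the other way in GL261, from 194 and 194 CPM to 98.7 and 112 CPM (-0.88 ± 0.12, adjusted p = 2.15e-04). In BMDM it was at 1.81 and 1.83 CPM and 0 and 0.622 CPM (-2.49 ± 1.12, adjusted p = 0.133), where DESeq2 called the fall (adjusted p = 0.0344). Plod1 was at 331 and 364 CPM and 754 and 844 CPM in BV2 (1.20 ± 0.12) and rose by 0.65 in BMDM, a call that was lost without any 1 of the 4 libraries. It did not pass in GL261 (0.32, adjusted p = 0.0928). Plod3 passed in BV2 alone (0.70) and was at -0.01 in GL261 and 0.09 in BMDM.

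Of the other members, Jmjd6 rose and Kdm8 fell in every monoculture. Jmjd6, a lysyl hydroxylase of splicing factors, was at 82.4 and 81.8 CPM and 214 and 226 CPM in BV2, 104 and 90.3 CPM and 350.1 and 346 CPM in GL261, and 39.9 and 42.4 CPM and 165 and 164 CPM in BMDM. Its groups were separate and its effects were 1.42 ± 0.11, 1.84 ± 0.13 and 2.00 ± 0.25. Kdm8, also called Jmjd5, carries a demethylase name but is known as an arginyl hydroxylase. It was at 19.4 and 19.0 CPM and 4.66 and 4.83 CPM in BV2, 12.6 and 9.55 CPM and 2.79 and 3.80 CPM in GL261, and 8.38 and 8.38 CPM and 3.27 and 3.59 CPM in BMDM. These groups were also separate, with effects of -2.01 ± 0.17, -1.76 ± 0.23 and -1.28 ± 0.29 (adjusted p = 3.49e-08, 1.39e-04 and 0.0104).

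Asph, which hydroxylates EGF-like domains of secreted and membrane proteins, rose in both myeloid cells. It was at 113 and 138 CPM and 266 and 322 CPM in BV2 and at 64.3 and 52.9 CPM and 252 and 258 CPM in BMDM, separate groups with effects of 1.23 ± 0.13 and 2.12 ± 0.22. In GL261 alone it overlapped between conditions, at 84.5 and 93.5 CPM and 96.2 and 88.5 CPM. In GL261 with BV2 it rose by less than 2-fold under hypoxia, a call that was lost in 2 of the fits that leave out 1 library. Asph shares 14.71% of its exon bases with genes on the other strand. Ogfod1, a prolyl hydroxylase of a ribosomal protein, fell from 50.2 and 49.1 CPM to 22.9 and 26.6 CPM in BV2 and from 20.4 and 19.4 CPM to 11.5 and 11.3 CPM in BMDM, and was at 0.26 in GL261 (adjusted p = 0.127). Its BMDM call was lost without any 1 of the 4 libraries.

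Hspbap1, a JmjC-domain protein that binds a small heat shock protein, fell in BV2 alone from 12.4 and 13.3 CPM to 5.54 and 5.71 CPM (-1.19 ± 0.16) and lay at -0.04 and -0.07 in the others. Tmlhe, the first enzyme of carnitine synthesis, rose from 11.7 and 9.40 CPM to 18.3 and 19.1 CPM in BV2 and from 6.02 and 6.11 CPM to 10.6 and 14.5 CPM in BMDM (1.05 ± 0.31, adjusted p = 0.0309, lost without any 1 of the 4 libraries). Ogfod2 rose in the lines, from 13.1 and 13.9 CPM to 21.9 and 22.1 CPM in BV2 and from 18.6 and 16.2 CPM to 30.6 and 35.4 CPM in GL261. Ogfod3 fell in GL261 from 13.4 and 12.5 CPM to 9.20 and 5.57 CPM (-0.80 ± 0.22), a call that was lost without normoxic replicate 1 or hypoxic replicate 2, and 17.05% of its exon bases overlap Hexdc on the other strand. Phyh, the peroxisomal enzyme that starts the breakdown of phytanic acid, lay between -0.31 and 0.16. Jmjd8 lay between -0.07 and 0.22, with 39.29% of its exon bases overlapped on the other strand by Stub1 and a microRNA gene. P4htm, a transmembrane prolyl hydroxylase, did not exceed 0.661 CPM in the first experiment.

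Under co-culture, hypoxia called 35 of 41 members in BV2 (85.4%, against 67.3% of all genes; 27 higher and 8 lower, where 35.2% of all genes were higher and 32.1% lower), 30 of 42 in GL261 (71.4%, against 52.4%; 26 higher and 4 lower, against 26.8% and 25.6%) and 20 of 41 in BMDM (48.8%, against 34.8%; 14 higher and 6 lower, against 17.5% and 17.3%). The BV2 count includes Tet1, P4ha2 and P4ha3, which passed the filter only through these libraries, whose GL261 share was 0.568% to 0.951% in normoxia and 2.07% to 2.36% in hypoxia. Without them 32 of 38 passed, 24 higher and 8 lower. Across these 3 comparisons and the 3 in monoculture, 10 of the 41 members tested in each rose in all 6 (the core without Phf8; 24.4%, against 4.62% of all genes). Kdm8 fell in all 6 (2.44%, against 3.35%), and Phyh passed in none in the fits without a replicate block (2.44%, against 8.34%). Kdm3a rose by 3.15 ± 0.15 in BV2, 3.39 ± 0.17 in GL261 and 2.36 ± 0.18 in BMDM from co-culture. In BMDM it was at 39.1, 58.0 and 36.7 CPM in normoxia and 221, 238 and 226 CPM in hypoxia, without overlap. P4ha2 was at 14.4, 23.3 and 18.7 CPM and 481, 777 and 517 CPM in the same libraries (4.98 ± 0.26). For both genes the normoxic and hypoxic BMDM stood far apart. Plod2 was at 5.13, 7.40 and 9.54 CPM and 45.9, 74.6 and 83.0 CPM (3.22 ± 0.32). Kdm8 fell in these BMDM from 6.92, 7.33 and 6.75 CPM to 3.21, 5.36 and 3.13 CPM, a call that was lost without normoxic replicate 2, hypoxic replicate 1 or hypoxic replicate 3.

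Further demethylases changed at least 2-fold in the co-cultures. In BV2 with GL261, Kdm6b went from 12.1 and 14.9 CPM to 134 and 109 CPM, Kdm4b from 22.9 and 29.3 CPM to 174 and 171 CPM and Kdm5b from 18.8 and 14.7 CPM to 96.3 and 106 CPM. Kdm4c went from 12.2 and 14.7 CPM to 43.7 and 45.2 CPM, Kdm7a from 29.6 and 33.6 CPM to 91.8 and 107 CPM and Kdm5a from 56.7 and 54.5 CPM to 168 and 170.0 CPM. Every hypoxic library was above both normoxic ones for these 6 genes. Kdm4a (64.3 and 69.6 CPM to 179 and 181 CPM), Kdm2a (134 and 135 CPM to 383 and 334 CPM) and Tet2 (57.0 and 50.9 CPM to 142 and 128 CPM) rose there too. Kdm3b (0.34), Phf2 (0.29) and the RNA demethylase Fto (0.29), which passed in no monoculture, passed in BV2 with GL261, and each call was lost in 3 or 4 of the 4 fits that leave out 1 library.

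In GL261 with BV2, Kdm5b, a relative of Kdm5a that acts on the same marks, went from 23.1 and 24.6 CPM to 133 and 144 CPM (2.54 ± 0.16) and Kdm5a from 107 and 106 CPM to 467 and 401 CPM. Kdm6b went from 85.9 and 107 CPM to 507 and 448 CPM, Kdm4b from 43.6 and 44.1 CPM to 202 and 207 CPM and Kdm3a from 100.3 and 105 CPM to 1154 and 1009 CPM. Kdm2a (79.0 and 87.6 CPM to 265 and 223 CPM), Kdm4c (24.4 and 24.6 CPM to 64.8 and 76.8 CPM) and Tet2 (25.5 and 31.3 CPM to 87.5 and 86.6 CPM) rose there too. The 2 groups were separate for each of these genes. Phf8, which rose less than 2-fold in GL261 alone, went from 13.7 and 13.9 CPM to 31.5 and 30.5 CPM with BV2 (1.16 ± 0.17). Kdm4d, tested in GL261 only, passed in co-culture, at 0.780 and 0.737 CPM and 1.45 and 1.76 CPM (1.08 ± 0.40, adjusted p = 0.0386), and its call was lost without any 1 of the 4 libraries.

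The hydroxylases of proteins rose alongside in GL261 with BV2: P4ha1 from 125 and 134 CPM to 1222 and 1225 CPM, P4ha2 from 35.0 and 30.5 CPM to 271 and 304 CPM and Plod2 from 225 and 220.1 CPM to 857 and 924 CPM. Jmjd6 rose from 101 and 97.8 CPM to 337 and 363 CPM, Ogfod2 from 14.9 and 15.3 CPM to 29.1 and 31.6 CPM and the RNA demethylase Alkbh5 from 121 and 133 CPM to 575 and 552 CPM. Each of these 6 had both hypoxic libraries above both normoxic ones. Ogfod3 fell from 16.6 and 16.8 CPM to 6.25 and 6.57 CPM (-1.38 ± 0.23) and Kdm8 from 13.5 and 13.0 CPM to 3.47 and 3.40 CPM (-1.94 ± 0.24). Jmjd8 passed there alone among the 8 hypoxia comparisons and fell from 2.21 and 1.23 CPM to 0.757 and 0.793 CPM (-1.14 ± 0.43, adjusted p = 0.0432), a call that DESeq2 did not make and that was lost without 3 of the 4 libraries.

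In BV2 with GL261, P4ha1 went from 85.5 and 83.2 CPM to 447 and 444 CPM, Plod2 from 34.9 and 44.1 CPM to 301 and 302 CPM and Plod1 from 247 and 255 CPM to 660.4 and 725 CPM. Asph rose from 89.0 and 82.4 CPM to 303 and 275 CPM, Jmjd6 from 94.6 and 112 CPM to 252 and 267 CPM and Alkbh5 from 112 and 137 CPM to 449 and 387 CPM. Kdm8 fell from 16.5 and 16.1 CPM to 4.29 and 3.27 CPM. The groups were separate for all 7, and each gene moved in the direction it had in BV2 alone, in other libraries. In the same libraries Tet1 had 3 counts in normoxia and 58 in hypoxia (ratio 18.3, counting interval 5.96 to 91.3), P4ha2 had 18 and 202 (ratio 10.6, counting interval 6.55 to 18.3) and P4ha3 had 39 and 86 (ratio 2.09, counting interval 1.41 to 3.13), all low beside their levels in GL261.

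In BMDM with GL261, Kdm6b was at 17.9, 38.9 and 17.9 CPM in normoxia and 156, 149 and 139 CPM in hypoxia (2.57 ± 0.27), Kdm5b at 9.20, 22.0 and 8.19 CPM and 81.0, 112 and 73.2 CPM, and Kdm4b at 35.1, 48.3 and 27.5 CPM and 174, 199 and 163 CPM. Alkbh5 was at 69.2, 57.4 and 62.7 CPM and 237, 264 and 205 CPM, P4ha1 at 128, 139.6 and 129.5 CPM and 566, 622 and 568 CPM, and Jmjd6 at 45.3, 74.7 and 57.0 CPM and 167, 259 and 220.4 CPM. All 3 hypoxic libraries exceeded all 3 normoxic ones for these 6 genes and for Asph (61.0, 52.7 and 41.0 CPM and 226, 198 and 166 CPM). Kdm2b fell from 43.7, 41.0 and 34.5 CPM to 23.6, 14.7 and 17.4 CPM (-1.10 ± 0.18) and Alkbh4 from 18.2, 17.1 and 17.4 CPM to 6.73, 6.85 and 8.98 CPM (-1.22 ± 0.18), as in BMDM alone. Hspbap1, which fell in BV2, rose in these BMDM (0.68), and Kdm3b (-0.51) and Alkbh8 (-0.90) fell, each a call that was lost without at least 1 library.

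In this BMDM comparison, libraries with the same number deviated together, and a fit with the number as a block called 23 members. It added Phyh (-0.49), Tet2 (0.44) and Alkbh1 (-0.52), at adjusted p = 0.038, 0.0282 and 0.0454. Kdm7a and Tet1 in GL261 had larger values with BV2 present: Kdm7a rose by 1.70 alone and 2.75 in co-culture, and Tet1 by 1.45 and 2.20. In GL261 from co-culture Kdm7a was at 9.88 and 11.7 CPM and 61.1 and 84.3 CPM, and Tet1 at 16.8 and 19.3 CPM and 83.0 and 83.3 CPM. The test of that difference called no member in GL261 by edgeR (0 of 42, against 0% of all genes), where 10 members had an unadjusted p under 0.05 and DESeq2 called 2, Kdm5b (1.08) and Kdm7a (1.06). The same test called 0 of 41 in BV2 (2.19% of all genes, 1.16% higher and 1.03% lower, 5 members at unadjusted p under 0.05, none by DESeq2) and 0 of 41 in BMDM (0% of all genes, 3 members, none by DESeq2).

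The hypoxia effects of the BV2 and GL261 monocultures differed for 19 of 42 members by an interaction test in 1 fit of both lines (45.2%, against 37.4% of all genes). The effect was higher in BV2 for 11, where 18.7% of all genes were, and lower for 8, where 18.7% were. Values are BV2 minus GL261, and the median over all genes in this fit was 0.15. The largest difference called was that of Plod2 (2.01 ± 0.21, adjusted p = 8.67e-07), followed on the higher side by Asph (1.28 ± 0.19) and Kdm6b (1.06 ± 0.22). Plod1 (0.98), Ogfod3 (1.01), Kdm4b (0.88), Tmlhe (0.87), Plod3 (0.82), Kdm4a (0.75), Kdm5b (0.71) and Kdm4c (0.64) also had the higher effect in BV2. So 3 of the 6 collagen hydroxylases and 5 of the 14 histone demethylases tested were in this direction.

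On the lower side stood 4 of the 9 AlkB members, with Alkbh8 (-1.55 ± 0.20, adjusted p = 1.02e-05), Alkbh1 (-1.42 ± 0.19, adjusted p = 1.19e-05), Alkbh3 (-1.20 ± 0.22) and Alkbh4 (-0.67). Ogfod1 (-1.15 ± 0.17), Hspbap1 (-1.05 ± 0.22), P4ha1 (-0.86 ± 0.17) and Kdm2b (-0.68) completed it. Alkbh1, Alkbh3 and Alkbh8 are the members that fell in 1 line and rose in the other, and P4ha1 rose in both but more in GL261. Kdm3a differed by 0.09 ± 0.22 (adjusted p = 0.829) and Alkbh5 by -0.04 ± 0.21 (adjusted p = 0.993). The calls of Alkbh4, Kdm2b, Kdm4c, Kdm5b, Tmlhe and Ogfod3 were each lost without at least 1 library.

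**Figure D3:**
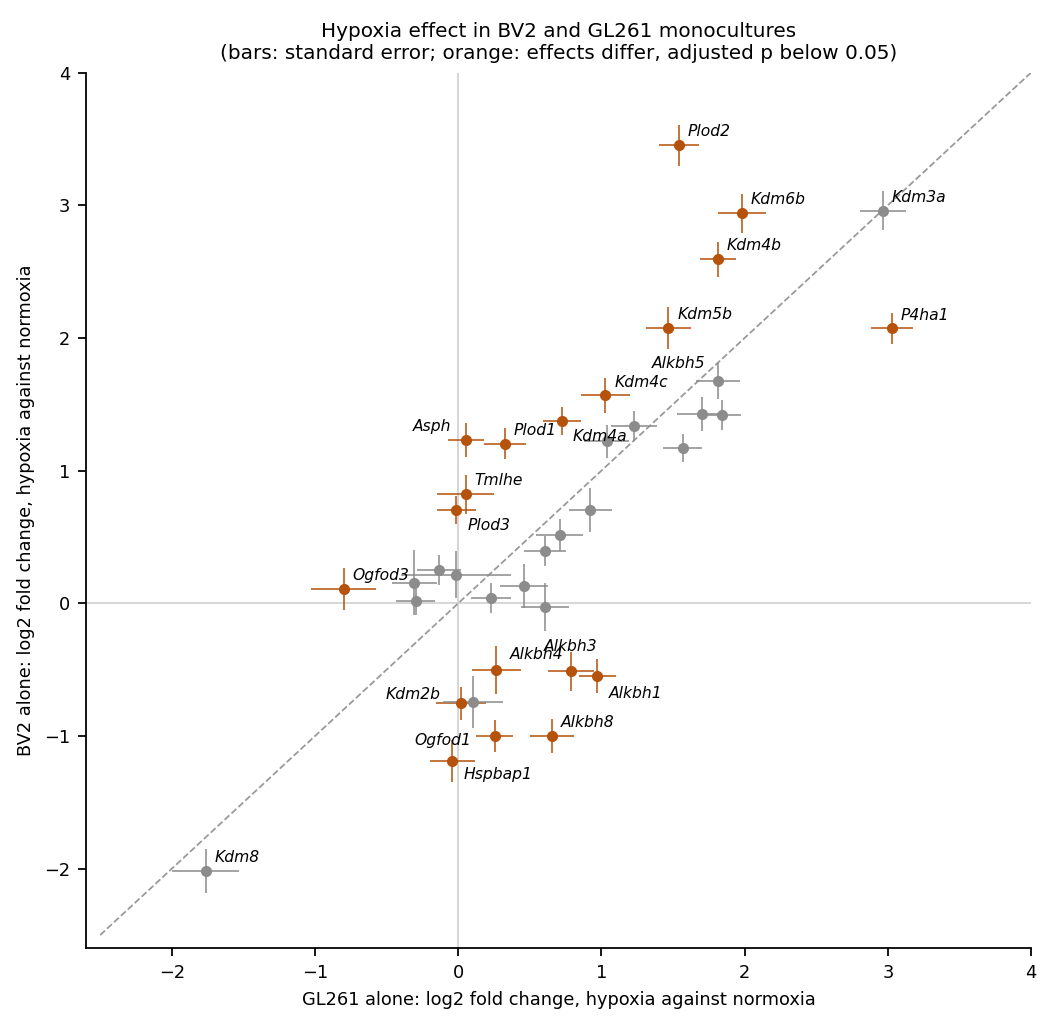
Log2 fold change under hypoxia in GL261 alone (x axis) and BV2 alone (y axis) for 38 members, with bars of 1 SE, fitted separately in each line. Orange marks members whose effects differed in the interaction test, and the dashed line marks equal effects. Tet1, P4ha2 and P4ha3 are not drawn because BV2 monocultures held at most 3 counts of them per group. Plod2 lies farthest above the line, and Alkbh1, Alkbh3 and Alkbh8 lie in the quadrant of a fall in BV2 and a rise in GL261.

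Contact with GL261 changed few members in BV2. In normoxia 8 of 41 passed (19.5%, against 14.9% of all genes), 2 higher (5.77% of all genes) and 6 lower (9.14%). The higher ones were P4ha2 and P4ha3, which passed the filter only through libraries with GL261 RNA. Without these and Tet1, 6 of 38 passed (15.8%), all lower. P4ha3 had 0 counts in BV2 monocultures and 39 in co-culture, at least 18.0-fold higher against a floor of 3 counts over the group, and P4ha2 had 1 and 18 counts, a ratio of 24.9 (counting interval 3.93 to 1038). The lower ones had effects of -0.35 to -0.55: Kdm2b (-0.53), Kdm3b (-0.39), Phf8 (-0.55), Fto (-0.35), Plod1 (-0.47) and Asph (-0.55). Phf8 was at 76.1 and 88.0 CPM alone and 54.1 and 57.6 CPM in co-culture. The count of 8 fell to 2 without normoxic monoculture replicate 2 or without normoxic co-culture replicate 1, and to 3 without normoxic co-culture replicate 2.

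In hypoxia 9 of 41 members passed in BV2 (22%, against 15.7% of all genes), 6 higher (8.13% of all genes) and 3 lower (7.57%). Of the 6, Tet1, P4ha2 and P4ha3 passed the filter only through the co-culture libraries, and without them 6 of 38 passed (15.8%), 3 in each direction, a share near that of all genes. Tet1 was at 1.34 and 1.98 CPM in hypoxic co-culture against 0 and 0.0549 CPM alone (58 counts and 1, ratio 58.1, counting interval 10.03 to 2334). P4ha2 was at 5.74 and 5.78 CPM against 0.0590 and 0.110 CPM (202 counts and 3, ratio 67.5, counting interval 22.8 to 329.8), and P4ha3 at 1.89 and 3.03 CPM (86 counts and 2, ratio 43.1, counting interval 11.6 to 361.4). Hspbap1 (0.91), Kdm5b (0.63) and Kdm6b (0.42) were the other 3 higher members, and Kdm2b (-0.69), Ogfod3 (-0.56) and Phf8 (-0.44) the lower ones. Of these 6 calls, those of Kdm2b and Hspbap1 stood whichever single library of the groups compared was left out, and the other 4 were each lost without at least 1. Kdm2b was at 38.0 and 41.4 CPM alone and 27.2 and 21.9 CPM in co-culture under hypoxia, without overlap. With genes left out that were 4-fold or more above BV2 in GL261 alone, 5 members passed in normoxia and 4 in hypoxia. Tet1, P4ha2, P4ha3 and Kdm6b were among the genes left out, so for them this was no retest.

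The 3 members that appeared in BV2 under co-culture are expressed by GL261, and their levels were set beside the GL261 share of each library times the level in GL261 alone, both in unscaled CPM. In the hypoxic co-cultures this product was 1.34 and 1.53 CPM for Tet1 (measured 1.30 and 1.92), 3.36 and 3.84 CPM for P4ha2 (measured 5.56 and 5.58) and 2.19 and 2.5 CPM for P4ha3 (measured 1.84 and 2.93). In normoxia it was 1.91 and 1.14 CPM for P4ha3 (measured 1.77 and 0.822) and 0.309 and 0.185 CPM for P4ha2 (measured 0.738 and 0.438). Measured P4ha2 was above this product in all 4 BV2 libraries. P4ha3 itself meets the criteria of the genes whose median gives the GL261 share in BV2, so it is not independent of that share. With share and level both taken from GL261 of the co-culture, where P4ha2 was higher under hypoxia, the P4ha2 product was 6.05 and 6.74 CPM in hypoxia, above the measured level, and 0.355 and 0.21 CPM in normoxia, below it. The hypoxic products of Tet1 were then 1.75 and 1.95 CPM and those of P4ha3 1.86 and 2.07 CPM. For P4ha3 in BMDM from hypoxic co-culture the product was 1.82, 3.41 and 6.65 CPM and the measured level 1.85, 3.90 and 8.54 CPM. For Tet1 there the product was 1.11, 2.08 and 4.06 CPM, above the measured 0.195, 1.09 and 1.47 CPM, so the product did not match every gene. P4ha2 in the same BMDM libraries was at 467, 714 and 526 CPM where the product was 2.80, 5.23 and 10.2 CPM. In BV2 grown with DMSO, where no GL261 cells were present, Tet1 and P4ha3 were below the count filter. P4ha2 passed it there, at 1.04 and 0.348 CPM in normoxia and 0.786 and 0.747 CPM in hypoxia. In the same BV2 libraries Col1a1 was at 10.6 and 7.38 CPM in normoxia and 14.4 and 10.9 CPM in hypoxia. BV2 alone in the first experiment held at most 0.165 CPM of Col1a1, and the source of these low levels was not tested.

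**Figure D4:**
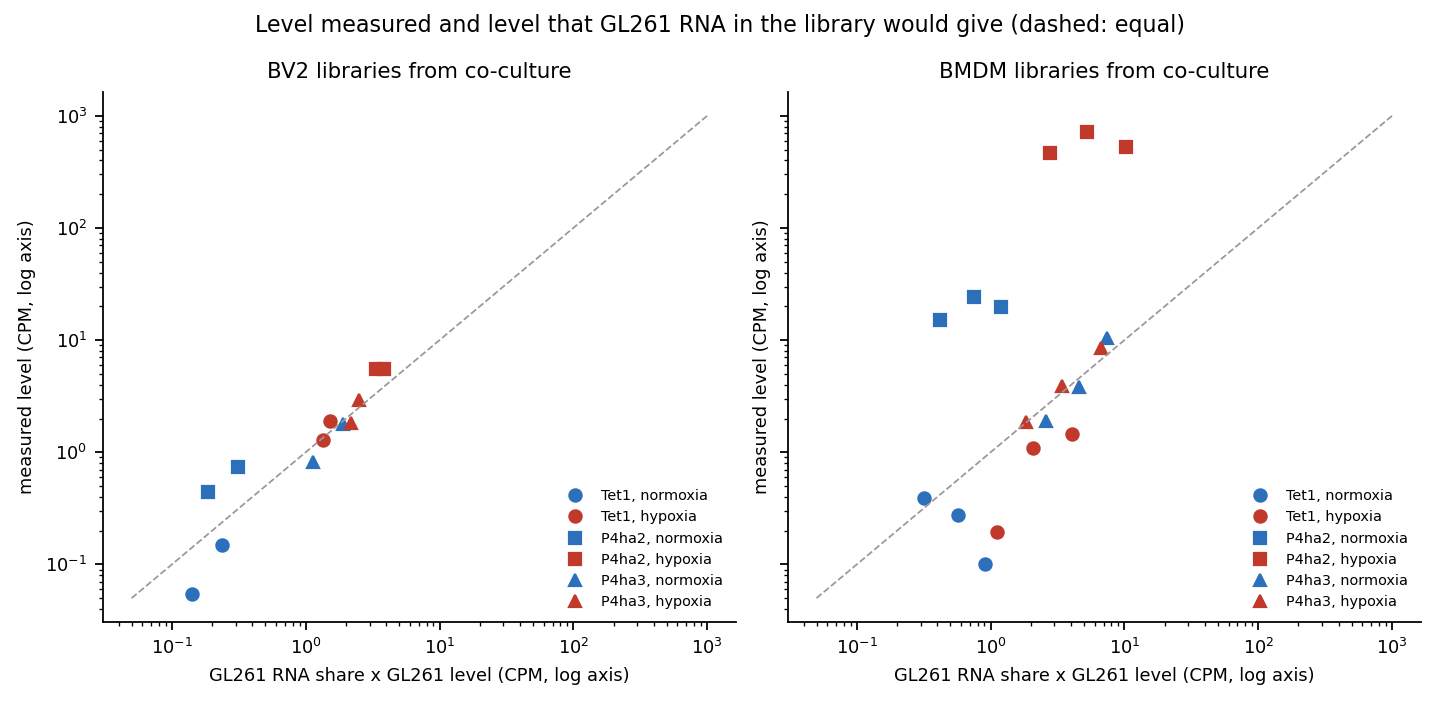
Measured CPM of Tet1, P4ha2 and P4ha3 (y axis, log) in co-culture libraries of BV2 (left) and BMDM (right) against the GL261 share of the library times the GL261 monoculture level (x axis, log). Points on the dashed line are equal. P4ha2 lies above the line in every library, P4ha3 lies near it in both cell types, and Tet1 lies near it in hypoxic BV2. Tet1 lies below the line in normoxic BV2 and in BMDM, except in normoxic BMDM replicate 1. With the level of co-cultured GL261 on the x axis, the hypoxic BV2 points of P4ha2 would lie below the line.

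Contact with BV2 called no member in normoxic GL261 by edgeR (0 of 42, against 0.514% of all genes), where 4 had an unadjusted p under 0.05 and DESeq2 called none. In hypoxic GL261 it called 2 of 42 (4.76%, against 1.39% of all genes), both higher (0.889% of all genes). P4ha2 was at 181 and 145 CPM alone and 271 and 304 CPM with BV2 (0.82 ± 0.16, adjusted p = 0.0373). Plod2 was at 588 and 509 CPM and 857 and 924 CPM (0.70 ± 0.14, adjusted p = 0.0361). Neither pair of groups overlapped, and BV2 RNA could give at most 0.914 CPM of Plod2 to the first of these libraries by its share. Both calls were lost without monoculture replicate 2 or either co-culture library.

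In BMDM, contact with GL261 called no member in normoxia by edgeR (0 of 41, against 1.64% of all genes, 1.57% higher and 0.0675% lower). There 7 members had an unadjusted p under 0.05 and DESeq2 called 2, Kdm6b (1.29) and P4ha2 (0.93). In hypoxia 7 of 41 passed (17.1%, against 7.11% of all genes), 3 higher (4.06% of all genes) and 4 lower (3.05%). P4ha3 (3.91), Alkbh2 (0.95) and Kdm5a (0.67) were higher, and Tmlhe (-1.22), Tet3 (-0.77), Kdm2b (-0.72) and Phf8 (-0.67) lower. Tmlhe was at 10.6 and 14.5 CPM alone and 6.83, 3.57 and 5.85 CPM in co-culture under hypoxia, without overlap. P4ha3 was at 0 and 0.622 CPM and 1.91, 4.24 and 8.39 CPM, in the order of the GL261 share of the 3 libraries (1.72%, 3.22% and 6.28%). With genes left out that were 4-fold or more above BMDM in GL261, P4ha3 and Kdm5a were themselves left out, and the others did not pass. None of the 7 passed when only these groups were fitted. The calls were also lost without either hypoxic monoculture library or hypoxic co-culture replicate 3. Without hypoxic co-culture replicate 2, 3 of them passed.

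The second experiment repeated the hypoxia comparison with DMSO. In BV2, 20 of 39 members passed (51.3%, against 37.5% of all genes), 16 higher (17.2% of all genes) and 4 lower (20.2%). Of the 10 members that rose in all 6 earlier comparisons, each rose here too: Kdm3a by 2.63, Kdm6b by 2.80, Kdm4b by 2.64, Plod2 by 2.45, Kdm5b by 1.89, Alkbh5 by 1.82, Jmjd6 by 1.81, Kdm2a by 1.62, P4ha1 by 1.45 and Kdm5a by 1.05. Kdm8 fell from 15.7 and 19.7 CPM to 6.13 and 5.16 CPM (-1.65 ± 0.30), and Alkbh1 (-1.45), Alkbh8 (-1.21) and Ogfod1 (-1.06) fell as they had in BV2 alone. The other 6 that rose were Kdm7a (1.72), Kdm4c (1.64), Kdm4a (1.23), Tet2 (0.96), Tmlhe (0.92) and Plod1 (0.79). The calls of Alkbh8, Ogfod1, Tmlhe and Plod1 were each lost without normoxic replicate 2 or hypoxic replicate 1, that of Tmlhe also without hypoxic replicate 2, and that of Plod1 when only these groups were fitted. Asph, which rose in BV2 alone, was at 241 and 127 CPM and 246 and 159 CPM here (0.14 ± 0.32, adjusted p = 0.764). Alkbh1 was at 43.4 and 34.5 CPM and 12.7 and 15.9 CPM, Alkbh8 at 20.2 and 24.9 CPM and 7.78 and 11.7 CPM, and Ogfod1 at 35.9 and 52.2 CPM and 16.7 and 25.6 CPM, without overlap. Plod3 and Ogfod2 also did not pass here (0.27 and 0.46).

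The library values of the risers in BV2 with DMSO were again separate between normoxia and hypoxia. Kdm3a was at 64.1 and 58.7 CPM and 415 and 346 CPM, Kdm6b at 13.8 and 16.3 CPM and 88.9 and 120.4 CPM, and Kdm4b at 32.3 and 39.1 CPM and 241 and 205 CPM. Kdm5b was at 16.5 and 17.1 CPM and 72.8 and 51.3 CPM, Kdm7a at 25.9 and 21.2 CPM and 85.3 and 69.7 CPM, and Kdm4c at 10.9 and 12.2 CPM and 33.6 and 38.3 CPM. These 6 histone demethylases include the 4 of the class that rose at least 2-fold in every monoculture. Kdm2a was at 149 and 149.9 CPM and 514 and 407 CPM, Kdm5a at 53.6 and 53.2 CPM and 106 and 114 CPM, and Kdm4a at 90.3 and 76.2 CPM and 210.3 and 180.1 CPM. Among the hydroxylases, Plod2 was at 37.2 and 32.3 CPM and 192 and 187 CPM, P4ha1 at 124 and 83.9 CPM and 311 and 256 CPM, and Jmjd6 at 61.7 and 81.5 CPM and 275 and 228 CPM. The RNA demethylase Alkbh5 was at 164 and 220.3 CPM and 749 and 607 CPM.

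In BMDM with DMSO, 1 of 42 members passed by edgeR, Kdm3a (2.38%, against 0.483% of all genes, 0.469% higher and 0.0134% lower), where 17 had an unadjusted p under 0.05 and DESeq2 called 13. With the replicate number as a block, edgeR called 11. Kdm3a was at 57.2 and 36.8 CPM in normoxia and 245 and 271 CPM in hypoxia (2.46 ± 0.29, adjusted p = 0.0449). The count was 0 without any 1 of normoxic replicates 1 and 2 and hypoxic replicate 1, and 5 without hypoxic replicate 2. P4ha2 was at 175 and 72.7 CPM and 1134 and 998 CPM (3.11 ± 0.50, adjusted p = 0.0662), where normoxic BMDM of the first experiment, scaled in another table, were at 8.10 and 11.5 CPM. P4ha3 was at 53.4 and 59.0 CPM and 1.00 and 18.9 CPM, against at most 1.83 CPM in BMDM monocultures of the first experiment. Col1a1, a fibroblast marker and collagen gene, moved beside it, at 13910.0 and 12660.0 CPM in normoxia and 1702 and 8976 CPM in hypoxia, the lower value in replicate 1 for both genes. The summed myeloid list was also lower in hypoxic replicate 1 (4035 CPM, against 11860.0 CPM in replicate 2), though its members Spi1 and Fcer1g were higher there. So this library was low in more than fibroblast genes. The summed fibroblast list was at 19350.0 and 20810.0 CPM in normoxia and 2899 and 14210.0 CPM in hypoxia, with 5 of its 6 genes averaging 1 CPM or more in both groups and none at 0 throughout. Most of this sum was Col1a1 and Col1a2, with Pdgfrb at 285 and 291 CPM in normoxia. Dcn, Lum and Thy1 did not exceed 5.64 CPM in these DMSO libraries. The part of this list in the levels of P4ha2, P4ha3 and Plod2 was not tested. Of the members that rose in the first experiment, Alkbh5 (1.82, adjusted p = 0.0596), Asph (1.93, adjusted p = 0.0596), Kdm5b (1.64, adjusted p = 0.0725) and Kdm4b (1.90, adjusted p = 0.0729) lay closest to the threshold here.

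The difference of the DMSO hypoxia effects between BV2 and BMDM passed for none of 42 members by edgeR (0.664% of all genes). There 11 had an unadjusted p under 0.05, and DESeq2 called 6 (Kdm2a, Kdm4c, Kdm6b, Kdm7a, P4ha2 and Asph). The values nearest the threshold were those of Kdm4c (1.63 ± 0.34, adjusted p = 0.0573) and Kdm7a (1.38 ± 0.31, adjusted p = 0.0691), BV2 minus BMDM. Without hypoxic BMDM replicate 2, 3 members passed.

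Panobinostat under hypoxia called 4 of 39 members in BV2 (10.3%, against 14.6% of all genes), 2 higher (7.21%) and 2 lower (7.39%). These shares are from the fit without a block, and 10 members passed with the replicate number as a block. Kdm8 fell further, from 6.13 and 5.16 CPM with DMSO to 1.45 and 1.08 CPM with panobinostat (-2.15 ± 0.35, adjusted p = 0.00565). Kdm4a fell from 210.3 and 180.1 CPM to 112 and 115 CPM (-0.78 ± 0.20, adjusted p = 0.0303). Under hypoxia with DMSO, Kdm8 was the member with the deepest fall and Kdm4a was among those that rose, and both comparisons share the hypoxic DMSO libraries.

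Plod2 rose from 192 and 187 CPM to 371 and 422 CPM under panobinostat (1.07 ± 0.20, adjusted p = 0.0106), and Jmjd8 from 21.0 and 19.1 CPM to 36.0 and 33.1 CPM (0.78 ± 0.21, adjusted p = 0.0351). No group overlapped. The share called was below that of all genes, and the count fell to 2 members without either hypoxic DMSO library and to 1 without either panobinostat library. Kdm3a, which rose in all 8 hypoxia comparisons, was at 273 and 289 CPM with panobinostat against 415 and 346 CPM with DMSO and did not pass (-0.44 ± 0.20, adjusted p = 0.176).

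In BMDM panobinostat called 0 of 42 members by edgeR (0% of all genes), where 8 had an unadjusted p under 0.05 and DESeq2 called 4. With the replicate number as a block, edgeR called 2. DESeq2's calls were Kdm3a (-1.23), Ogfod1 (1.33), Kdm4a (-0.80) and Kdm8 (-1.66). Kdm3a was at 108 and 110.4 CPM with panobinostat against 245 and 271 CPM with DMSO, and Kdm8 at 0.659 and 1.38 CPM against 3.07 and 3.43 CPM, both without overlap. The summed myeloid marker list was at 1110.0 and 4807 CPM with panobinostat and 4035 and 11860.0 CPM with DMSO in these hypoxic libraries, with 13 of 14 genes averaging 1 CPM or more, and its part in these values was not tested. The panobinostat effects of BV2 and BMDM differed for 0 of 42 members by edgeR (0.0251% of all genes, 4 members at unadjusted p under 0.05, none by DESeq2).

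**Figure D5:**
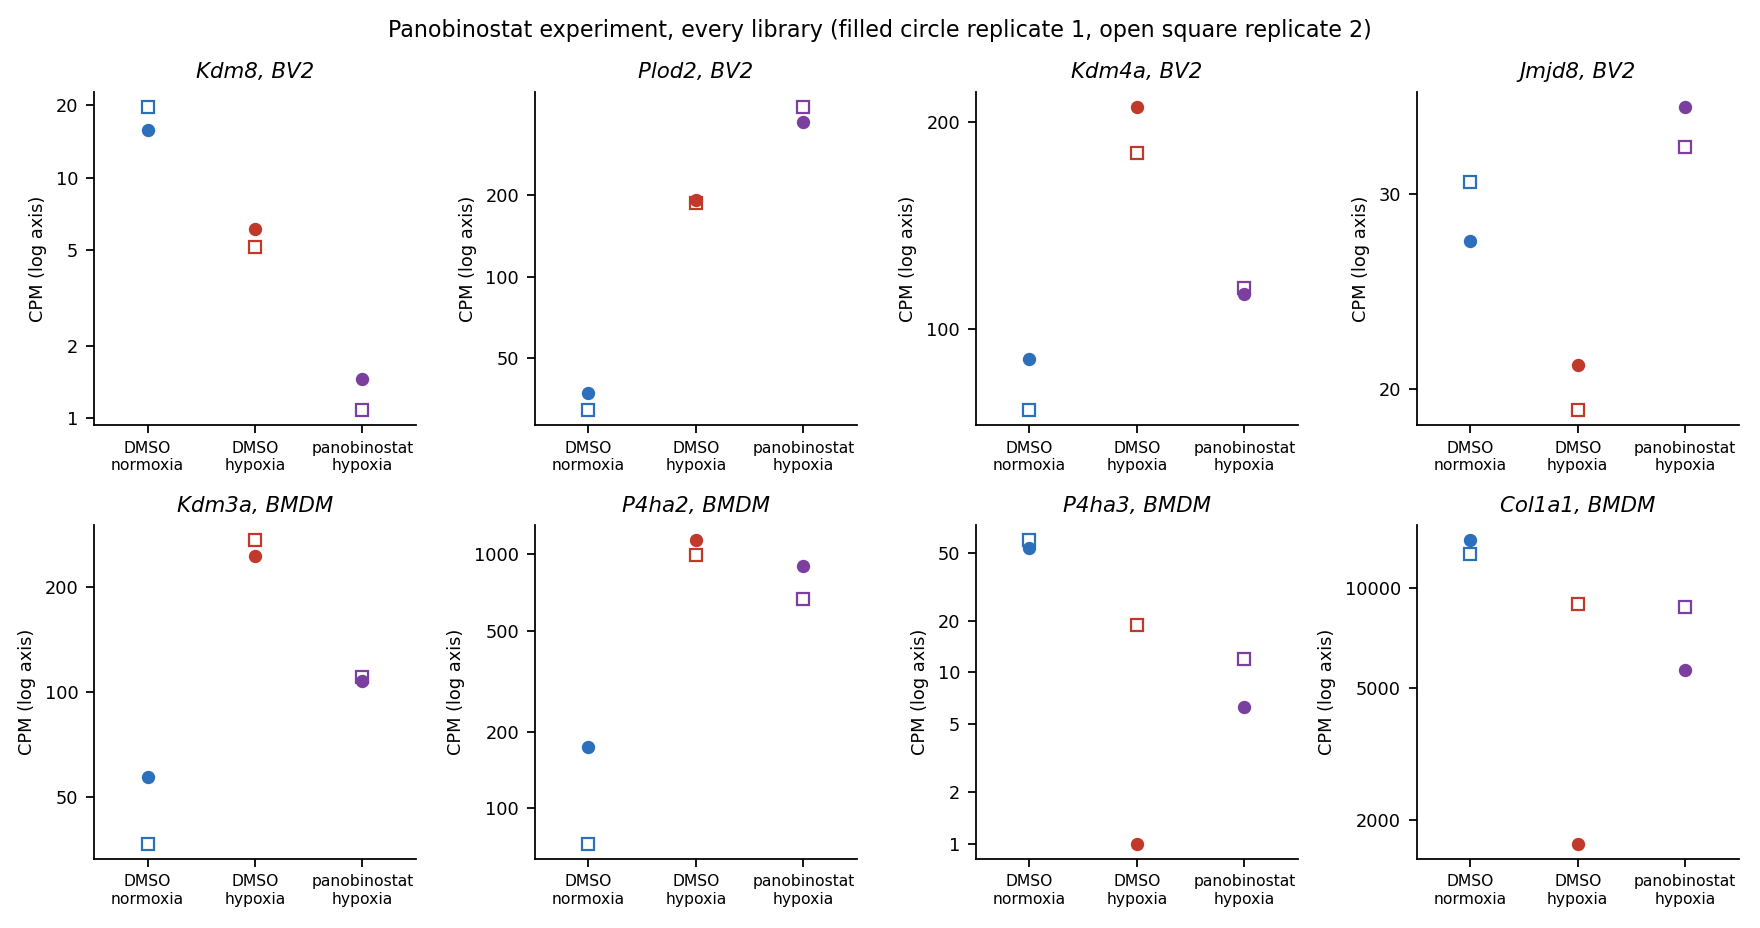
CPM (log axis) in each library of the second experiment, with DMSO in normoxia, DMSO in hypoxia and panobinostat in hypoxia. The top row gives the 4 members called under panobinostat in BV2, and the bottom row gives Kdm3a, P4ha2, P4ha3 and the fibroblast marker Col1a1 in BMDM. Replicates of P4ha3 and Col1a1 in hypoxic DMSO differ widely, with replicate 1 (filled circle) low for both.

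Other genes around these enzymes were counted by lists. Of 19 further oxygenases of the family, 8 rose and 3 fell of 15 tested in BV2 alone, 9 and 4 of 16 in GL261 alone, and 3 and 2 of 16 in BMDM alone. Over all genes, 30.9% rose and 31% fell in BV2 alone, 23.2% and 21.4% in GL261 alone, and 13.3% and 10.6% in BMDM alone, so that the BMDM counts (18.8% and 12.5%) lie near those shares. Egln3, a prolyl hydroxylase of the hypoxia-inducible factors, had the largest rise in each (5.59, 2.82 and 6.84). Riox2, a ribosomal oxygenase, had the largest fall in BV2 (-2.21) and BMDM (-0.81). The 2 flavin-dependent demethylases, which need no 2-oxoglutarate, both fell in BV2 alone (Kdm1b by 0.73 on the log2 scale) and passed in neither GL261 nor BMDM.

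The enzymes that write the marks, 31 methyltransferases and partners, were 5 higher and 21 lower of 31 tested in BV2 alone, with a median of -0.46 (16.1% and 67.7%, against 30.9% and 31% of all genes). The largest fall there was that of the H3 lysine 9 methyltransferase Suv39h2 (-2.23). In GL261 alone 9 rose and 7 fell of 30, near the shares of all genes (30% and 23.3%, against 23.2% and 21.4%), with Kmt2a, a methyltransferase of H3 lysine 4, at 1.30, and in BMDM alone 1 rose and 6 fell of 31 (3.23% and 19.4%, against 13.3% and 10.6%), with Uhrf1, a maintenance factor of DNA methylation, at -1.57. Of 23 genes of 2-oxoglutarate, succinate and 2-hydroxyglutarate metabolism, 5 rose and 15 fell in BV2 alone (21.7% and 65.2%), 4 and 11 in GL261 alone (17.4% and 47.8%), and 2 and 5 in BMDM alone (8.7% and 21.7%), beside the same shares of all genes. Idh3a, a subunit of the mitochondrial isocitrate dehydrogenase that makes 2-oxoglutarate, had the largest fall in BV2 (-2.34) and BMDM (-1.69), and Ldha, lactate dehydrogenase, the largest rise in GL261 (1.99) and BMDM (2.06).

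Of 15 partners of collagen processing, 2 of the 9 tested rose and none fell in BV2 alone (22.2% higher, against 30.9% of all genes), where P4hb, the beta subunit that pairs with the P4ha proteins, rose by 1.92. In GL261 alone 1 of 12 rose and 9 fell (75% lower, against 21.4%), and in BMDM alone 3 of 15 rose and none fell (20% higher, against 13.3%), with the galactosyltransferase Colgalt2 at -1.68 in GL261 and 3.66 in BMDM. Under panobinostat in BV2, 0 of 31 writers rose and 5 fell (16.1%, against 7.39% of all genes; Uhrf1 at -1.77, the largest).

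Compared per kilobase of exon, Plod1 was the most abundant member in normoxic BV2 (51.4 CPM per kb) and normoxic BMDM (60.5), and P4ha3 in normoxic GL261 (61.9). Next came Alkbh5 (23.9) and Plod3 (21.5) in BV2, Kdm4a (35.9) and Plod2 (35.0) in GL261, and Plod3 (39.0) and P4ha1 (27.2) in BMDM. In BMDM of the second experiment with DMSO in normoxia, Plod3 (73.3) and P4ha1 (66.0) stood above Plod1 (53.4). Collagen hydroxylases thus held the first place in each cell type, with different genes in GL261 and in the myeloid cells, on exon lengths from GENCODE.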

How the data were processed

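The authors deposited 3 tables of raw counts per Ensembl gene, 1 for the BV2 and GL261 libraries, 1 for BMDM and 1 for the panobinostat experiment. Reads were trimmed with Trimmomatic 0.36, aligned with STAR 2.6 to mm10 and counted with HTSeq 0.9.1, per the submitters' processing notes, with Picard 2.17.1 named for the lines only. The strand setting and annotation release are not given in the sources used here, so reads of a gene and of one overlapping it on the other strand may not be told apart. From the counts, edgeR 4.0.16 (R 4.3.3) tested genes that passed its filter (minimum count 10, minimum total 15), with TMM factors, quasi-likelihood F-tests and Benjamini-Hochberg adjustment over all genes tested in a comparison. The groups of 1 cell type in 1 table entered a fit together, interactions were tested in the same fits or in 1 fit of both cell types of a table, and adjusted p under 0.05 was called. SE is the log2 fold change divided by the square root of F. The fit was tested on simulated data. Library totals were 9634700 to 27238933 counts, and intervals and floors (95%, exact, and 3 counts) cover counting error only.

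Every member is named. Library values are given, for part of the comparisons, for the 32 members called with at least a 2-fold change in any 2-group comparison. The members and gene lists were chosen with earlier results of these data known. No 2 libraries of a group agreed within sampling noise (chi-square per gene 6.12 to 141). Libraries with the same number deviated together in the hypoxia comparison of BMDM from co-culture (correlations of deviations 0.455, 0.244 and 0.407). The main fit there has no block, and the count with a block is given beside it. In GL261 these correlations reached 0.369. In the panobinostat table they were 0.336 to 0.593 in BMDM and 0.154 to 0.389 in BV2, and the main fits there have no block either. Partner RNA was estimated from genes at 20 CPM or more in the partner and at least 100-fold above the cells' own monoculture. Positions and exon lengths come from GENCODE vM21 (GRCm38), and promoters from RefSeq (GRCm38.p6). As alternatives the tests were rerun with DESeq2 1.42.0 or with its size factors in edgeR, without the filter or for genes averaging 5 CPM or more, with a replicate block, with no other group in the fit, without each library in turn, and without genes whose level in the partner was 4-fold or more above that of the cells. After seeing the data, BV2 counts were repeated without Tet1, P4ha2 and P4ha3, and the GL261 share times level was repeated with GL261 of the co-culture.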

Additional observations from a re-analysis of the deposited data

Results flagged for a closer look

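In 19 members the hypoxia effect differed between the BV2 and GL261 monocultures in edgeR's interaction test, where the median over all genes was 0.15. Values are BV2 minus GL261 on the log2 scale. The effect was higher in BV2 for the collagen lysyl hydroxylases Plod2 (2.01), Plod1 (0.98) and Plod3 (0.82), for Asph (1.28), Ogfod3 (1.01) and Tmlhe (0.87), and for the histone demethylases Kdm6b (1.06), Kdm4b (0.88), Kdm4a (0.75), Kdm5b (0.71) and Kdm4c (0.64). It was lower in BV2 for Alkbh8 (-1.55), Alkbh1 (-1.42), Alkbh3 (-1.20) and Alkbh4 (-0.67) of the AlkB family, for Ogfod1 (-1.15) and Hspbap1 (-1.05), for P4ha1 (-0.86) and for Kdm2b (-0.68). For Alkbh1, Alkbh3 and Alkbh8 the libraries of each line moved in opposite directions. Alkbh4 did not pass with DESeq2 (adjusted p = 0.0524).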

How the results depend on the processing

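Of 232 calls of a member in a comparison, 166 stood under every alternative and 66 were lost in at least 1, and no called direction reversed. Hypoxia counts of the 2 lines stayed within 1.5 times. The replicate block kept 230 of the 232 calls, but raised the count under hypoxia in BMDM with DMSO from 1 to 11, under panobinostat in BV2 from 4 to 10, and from 0 to 2 under panobinostat in BMDM, 3 for contact in normoxic BMDM, 1 for contact in normoxic GL261 and 2 for the DMSO difference of BV2 and BMDM. The labels give no more than a shared number there, as in BMDM from co-culture, and whether these libraries are paired was not tested. Correlations of same-numbered deviations had a mean of 0.302 in BV2 and 0.446 in BMDM of the panobinostat table, and 0.033 in BV2, 0.181 in GL261 and 0.149 in BMDM otherwise. Elsewhere the block moved no count by over 1.5 times.

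DESeq2 gave 13 (1) for hypoxia in BMDM with DMSO, 2 (0) for contact in normoxic BMDM, 4 (0) for panobinostat in BMDM, 2 (0) for contact by hypoxia in GL261 and 6 (0) for the DMSO difference, edgeR's count in parentheses. Without a filter the same 5 counts were 14, 4, 2, 2 and 7, with 1 for contact in normoxic GL261 (0) and 1 and 2 for contact by hypoxia in BV2 (0) and BMDM (0). A mean of at least 5 CPM gave 5 for contact in normoxic BV2 (8), 2 in hypoxic BMDM (7) and 1 for the DMSO difference. Size factors gave 4 in hypoxic BMDM. Fitting only the groups compared gave 0 for hypoxia in BMDM with DMSO, contact in hypoxic GL261 (2) and contact in hypoxic BMDM. Leaving out partner-high genes gave 5 and 4 for contact in normoxic and hypoxic BV2 (8 and 9) and 0 in hypoxic BMDM. Members among the genes left out, such as P4ha3 in each of these, could not be called.

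Leaving out 1 library gave 11 to 13 for hypoxia in BMDM alone (20), 0 to 5 in BMDM with DMSO, 2 to 8 for contact in normoxic BV2, 0 to 2 in hypoxic GL261, 0 to 1 in normoxic BMDM, 0 to 10 in hypoxic BMDM, 1 to 2 for panobinostat in BV2 and 0 to 3 for the DMSO difference. The cause of these differences was not tested, beyond fewer libraries or genes entering the fit. Most groups have 2 libraries. For the first experiment the biological coefficient of variation came to 0.0958 (BV2), 0.133 (GL261) and 0.222 (BMDM), and for the panobinostat table to 0.205 (BV2) and 0.381 (BMDM).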
